A study of Mus musculus with 4 samples.

Results

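The interferon regulatory factors (IRFs) are transcription factors that share a DNA-binding domain and act in interferon and inflammatory gene expression. The 8 family genes followed here were Irf1, Irf2, Irf3, Irf4, Irf5, Irf7, Irf8 and Irf9. They were chosen by name, with earlier results of these data known, and all 8 were present among the 21834 genes of the deposited count table. RNA was sequenced from mouse bone marrow cells that the labels call both BMDMs and monocytes, after 3 days with RANKL, the cytokine that drives osteoclast formation. There were 2 libraries labelled Nat10 conditional knockout (cKO) and 2 labelled wild type (WT), and both groups received RANKL. Nat10 encodes an RNA acetyltransferase. Cells were washed in cycloheximide before lysis and ribosomal RNA was depleted. The Cre driver, the deleted exons, and the age, sex and number of the mice are not stated in the labels. Nor is it stated whether replicate libraries derive from different mice, so the p-values measure only the spread between libraries, which may be technical.

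IRF proteins bind DNA elements built around GAAA repeats. Irf3 and Irf7 are activated by phosphorylation downstream of nucleic acid sensors and Toll-like receptors and switch on interferon genes, and Irf9 joins STAT proteins in ISGF3, the complex that carries the type I interferon signal to DNA. Irf1 activates many interferon gamma and inflammatory genes, Irf2 competes with it for the same elements, and Irf5 acts behind MyD88 at inflammatory cytokine genes. Irf4 and Irf8 bind with partner factors in lymphoid and myeloid cells. In mouse osteoclast precursors, RANKL induces interferon beta, which restrains differentiation, and Irf8 restrains it by blocking Nfatc1.

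The promoters of Irf1, Irf2 and Irf8 are shown because they hold several of the motif matches found among the family. All 8 members matched a RefSeq start, giving 11 windows on mouse build GRCm38.p6, each running from 250 bases before a start to 50 bases after it. Letters searched on both strands were GAAANNGAA (an IRF element, TTCNNTTTC on the other strand), TTCNNNGAA (a GAS element, a STAT site, which reads the same on both strands) and GGNNTTTCC (an NF-kappa B element, GGAAANNCC on the other strand). Capitals mark the matches, and the sequences run 5′ to 3′ on the plus strand, from chr11:53769764-53770063 for Irf1, chr8:46739495-46739794 for Irf2 and chr8:120736108-120736407 for Irf8.
Irf1: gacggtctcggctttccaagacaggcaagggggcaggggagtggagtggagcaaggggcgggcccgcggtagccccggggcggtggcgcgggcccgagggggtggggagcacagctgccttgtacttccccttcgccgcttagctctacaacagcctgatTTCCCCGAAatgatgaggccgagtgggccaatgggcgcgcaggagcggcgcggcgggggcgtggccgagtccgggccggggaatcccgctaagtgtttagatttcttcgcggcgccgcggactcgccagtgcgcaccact
Irf2: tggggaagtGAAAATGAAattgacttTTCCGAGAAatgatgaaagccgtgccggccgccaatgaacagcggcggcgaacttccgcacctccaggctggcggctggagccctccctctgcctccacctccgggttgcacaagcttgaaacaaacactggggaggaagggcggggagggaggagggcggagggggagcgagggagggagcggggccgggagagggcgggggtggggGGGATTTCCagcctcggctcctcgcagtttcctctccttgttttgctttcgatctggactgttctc
Irf8: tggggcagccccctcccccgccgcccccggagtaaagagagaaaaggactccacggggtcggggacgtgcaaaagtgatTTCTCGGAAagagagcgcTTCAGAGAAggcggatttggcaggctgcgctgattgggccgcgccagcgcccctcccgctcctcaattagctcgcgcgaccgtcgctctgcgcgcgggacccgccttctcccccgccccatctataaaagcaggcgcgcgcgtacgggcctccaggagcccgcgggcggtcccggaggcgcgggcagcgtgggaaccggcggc
The Irf1 window held 1 match, TTCCCCGAA, whose first base lay at -90 from the start. The Irf2 window held GAAAATGAA at -241, TTCCGAGAA at -224 and GGGATTTCC at -16, with no overlap between them. The Irf8 window held a pair of GAS matches, TTCTCGGAA at -171 and TTCAGAGAA at -153. In the Irf3 window the only match was GGCCTTTCC at -228, and the windows of Irf4, Irf5, Irf7 and Irf9 held none. Irf1 and Irf8 each had a further window, at another start and not shown, that held no match. Of 32851 windows of the same length, 8.56% held the IRF letters, 8.30% the GAS letters and 5.82% the NF-kappa B letters. A match describes the letters and is not evidence of binding. Other spellings of these elements were not searched, so a window without a match, or without capitals for 1 element, may still hold such a site.

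Library totals ran from 10037338 to 14097638 counts, and 11448 genes were frequent enough to test. CPM values use library sizes corrected by TMM factors. Nat10 itself did not differ clearly between the groups. It had 15.9 and 14.3 CPM in the cKO-labelled libraries and 16.9 and 18.6 CPM in WT, a log2 change of -0.24 (95% interval -0.56 to 0.08, edgeR adjusted p = 0.263). A whole-gene count cannot test the loss of single exons, so these counts do not check the genotype and the groups are named by their labels. The osteoclast genes Acp5 (2913 ± 305 CPM against 1973 ± 71.2 CPM in WT, SD, n = 2) and Ctsk (953 ± 25.2 against 866 ± 34.3) and the macrophage gene Csf1r (1363 ± 24.2 against 1142 ± 12.5) were abundant in both groups. Of 9 osteoclast markers tested, 6 were called higher and 2 lower in the cKO-labelled libraries, and of 7 macrophage markers 4 were higher and 2 lower. Over all tested genes, 14.4% were called higher and 14.4% lower. Summed CPM of 9 stromal markers, 8 of them tested and all 8 higher, was 1011 and 976 in cKO against 255 and 245 in WT. Neutrophil markers summed to 784 and 890 against 464 and 451, with 4 of 5 tested genes higher. B cell markers summed to 13.3 and 13.4 against 5.11 and 5.64, with Ebf1 the 1 of 4 tested genes called. Dendritic cell markers summed to 31.1 and 31.8 against 36.3 and 33.4, with Ccr7 (-1.25) the 1 of 3 tested genes called, and no T or NK cell marker exceeded 2 counts in a library. The part of these marker differences in the IRF results was not tested. In bulk RNA, fewer cells of a type and less RNA per cell cannot be told apart.

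Of the 8 members, 7 were frequent enough to test. Irf1 fell most, to 41.6% of its WT level, Irf2, Irf7 and Irf9 fell by smaller amounts, and no member rose. Irf3, Irf5 and Irf8 did not pass the test and Irf4 was too rare to test. The 4 members called lower stand against 14.4% of all tested genes called lower and 14.4% called higher. The 4 became 5 without cKO replicate 1, 2 without cKO replicate 2, and 1, Irf1, without either WT library. In all 7 tested members both cKO libraries lay below both WT libraries, against 31.3% of all tested genes with that arrangement and 32.3% with the opposite one. The median log2 change of the 7 was -0.30, beside 0.01 over all genes tested.

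**Figure D1:**
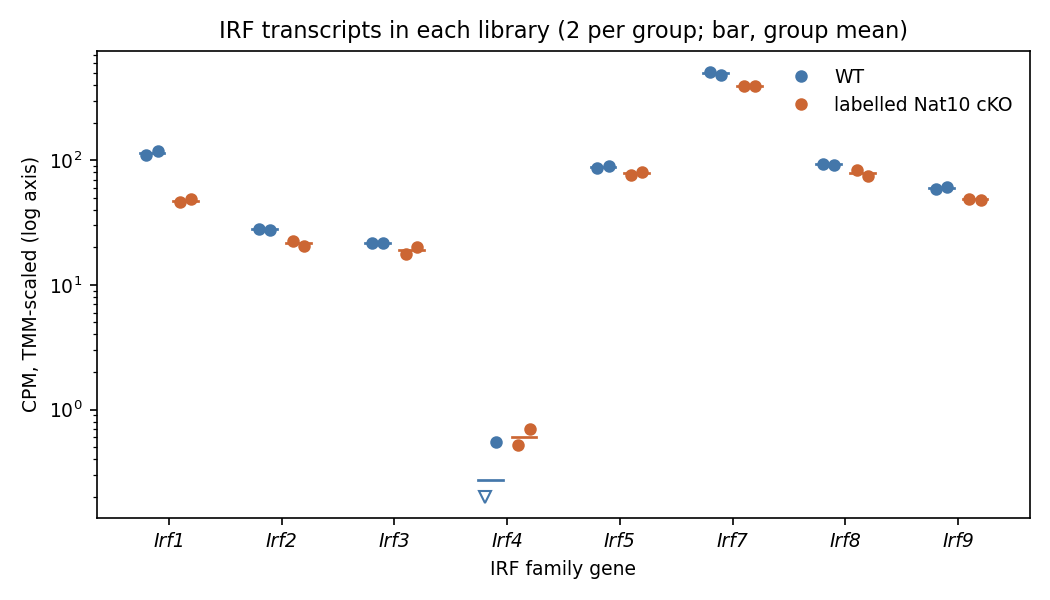
CPM of each IRF gene on a log axis in the 4 libraries, 1 point per library, with the open triangle marking the WT library in which Irf4 had 0 counts, drawn at the foot of the axis. Irf1 sits at 45.9 and 49.3 CPM in the cKO-labelled libraries and at 111 and 118 CPM in WT, while the other members lie closer together.

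Irf1 (ENSMUSG00000018899, GRCm39 chromosome 11, 53660841 to 53669200, plus strand) is induced by interferon gamma and by inflammatory signals. Its counts were 532 and 707 in the cKO-labelled libraries and 1087 and 1507 in WT, or 45.9 and 49.3 CPM against 111 and 118 CPM. The gap between the groups was many times the spread within either group. The log2 change was -1.27 ± 0.11 (SE, n = 2 per group, edgeR adjusted p = 4.83e-08), leaving 41.6% of the WT level (95% interval 35.6% to 48.5%). Only 171 tested genes, 1.49%, had a lower log2 change. The call held under every alternative tried. An opposite-strand gene, Gm17334, overlaps Irf1, and since the strand setting of the counting is not given, reads of overlapping genes cannot be told apart.

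Irf2 (ENSMUSG00000031627, chromosome 8, 47192767 to 47300493, plus strand) binds the same elements as Irf1 and is best known as its antagonist. It had 22.3 and 20.7 CPM in cKO against 28.1 and 27.8 CPM in WT. The groups did not overlap, and Irf2 was at 76.9% of its WT level (log2 change -0.38 ± 0.13, edgeR adjusted p = 0.0365). This call ended under 7 of 11 alternatives. They were upper-quartile scaling (adjusted p = 0.119), library-size scaling (0.0837), a filter of at least 10 CPM (0.0646), DESeq2 (0.133), and leaving out the second cKO library (0.141), the first WT library (0.141) or the second (0.146).

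The activator and its antagonist were also set against each other within each library. The ratio of Irf1 to Irf2, as counts per length, was 2.40 and 2.78 in the cKO-labelled libraries and 4.62 and 4.96 in WT. The ratios did not overlap between groups. The log2 ratio was lower by 0.89 in cKO, with an exact two-sided permutation p of 0.333, which is the smallest that 2 against 2 libraries allow. Leaving out single libraries gave differences between -0.996 and -0.783.

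Irf3 and Irf7 are the phosphorylated activators of interferon genes. Irf3 (ENSMUSG00000003184, chromosome 7, 44647072 to 44652272, plus strand), which most cells make without stimulation, had 17.6 and 20.2 CPM in cKO and 21.6 and 21.9 CPM in WT. The cKO libraries lay lower but the change did not pass the test (log2 -0.20, 95% interval -0.49 to 0.10, edgeR adjusted p = 0.334). Irf3 overlaps Bcl2l12 on the opposite strand over 1065 bases.

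Irf7 (ENSMUSG00000025498, chromosome 7, 140842619 to 140846394, minus strand) is itself induced by interferon and amplifies the response. It was the most abundant member, with 397 and 392 CPM in cKO and 511 and 485 CPM in WT. Each group was tight and they did not overlap. Irf7 was at 79.2% of WT (95% interval 69.4% to 90.4%, log2 change -0.34 ± 0.09, edgeR adjusted p = 0.0091). The call ended under upper-quartile scaling (adjusted p = 0.0612) and without WT replicate 1 (0.178) and also without WT replicate 2 (0.083). The ratio of Irf7 to Irf3, as counts per length, was 23.9 and 20.6 in cKO and 25.2 and 23.5 in WT, so these ratios overlapped (log2 difference -0.13, exact two-sided permutation p = 0.667).

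**Figure D2:**
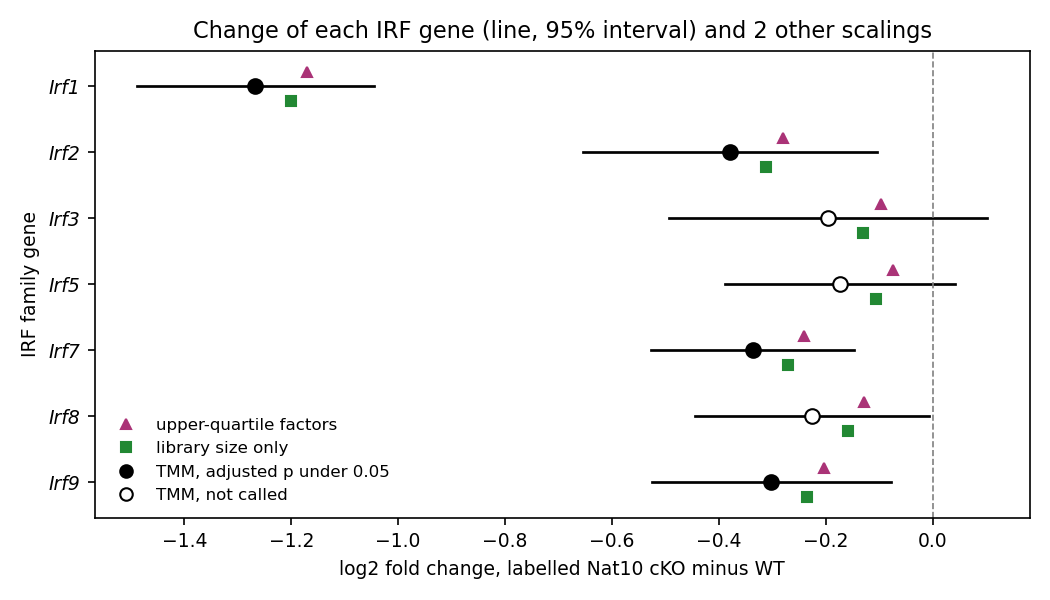
Log2 fold change, labelled Nat10 cKO minus WT, for the 7 tested members, with circles and 95% intervals for TMM scaling (filled when the adjusted p was under 0.05), triangles for upper-quartile scaling and squares for library size only. Irf1 lies at -1.27, and the other 6 members lie between -0.38 and -0.17.

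Irf9 (ENSMUSG00000002325, chromosome 14, 55841028 to 55847487, plus strand) is the DNA-binding subunit of ISGF3. It had 49.0 and 48.3 CPM in cKO and 59.2 and 60.6 CPM in WT. Libraries within a group nearly coincided, and Irf9 was at 81.1% of WT (log2 change -0.30 ± 0.11, edgeR adjusted p = 0.0399). That call ended under 8 of 11 alternatives. They were upper-quartile scaling (adjusted p = 0.161), library-size scaling (0.11), no filter (0.0522), a filter of at least 10 CPM (0.0693), DESeq2 (0.112), and leaving out the second cKO library (0.074), the first WT library (0.169) or the second (0.233). Irf9 shares 123 bases with Rnf31 on the same strand.

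Irf5 (ENSMUSG00000029771, chromosome 6, 29526624 to 29541870, plus strand), the MyD88-linked factor at inflammatory cytokine genes, had 76.4 and 80.7 CPM in cKO and 86.6 and 90.5 CPM in WT. Both cKO libraries lay lower, but the change did not pass the test (log2 -0.17, 95% interval -0.39 to 0.04, edgeR adjusted p = 0.225). Irf5 overlaps Tnpo3 on the opposite strand over 1045 bases.

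Irf8 (ENSMUSG00000041515, chromosome 8, 121463097 to 121483433, plus strand), a factor of macrophage and dendritic cell identity that RANKL lowers in mouse osteoclast precursors, had 84.0 and 74.7 CPM in cKO and 92.9 and 92.5 CPM in WT. Both cKO libraries lay lower, and cKO replicate 2 lay lowest. The change did not pass the test (log2 -0.23, 95% interval -0.45 to -0.01, edgeR adjusted p = 0.116), but it did without cKO replicate 1 (-0.32, adjusted p = 0.0199) and with the replicate number as a block (-0.23, adjusted p = 0.0391). Gm20388, an annotated gene on the same strand, covers 20337 bases of Irf8, the whole length of the span given above. Strand therefore cannot separate reads of Gm20388 from reads of Irf8, which limits the Irf8 level, rank and test.

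Irf4 (ENSMUSG00000021356, chromosome 13, 30933209 to 30950959, plus strand) acts in lymphocytes and in alternatively activated macrophages. It had 6 and 10 counts in cKO (95% Poisson intervals 2.20 to 13.1 and 4.80 to 18.4) and 0 and 7 in WT (0 to 3.69 and 2.81 to 14.4). The WT library with 0 counts lay lowest and the other 3 lay between 6 and 10. The ratio of the summed rates was 2.08 with a 95% interval of 0.810 to 5.98, which covers counting error only, so a difference was not detectable at this depth.

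Per length, the family summed to 330 and 328 RPKM in the cKO-labelled libraries and 436 and 428 RPKM in WT. Irf7 held most of this sum, 62.8% and 62.4% in cKO against 61.2% and 59.1% in WT. The share of Irf1 was 6.51% and 7.03% in cKO and 11.9% and 12.9% in WT, so Irf1 stood at about the same share within a group and apart between groups. The shares of Irf5 were 10.3% and 11.0% in cKO and 8.86% and 9.44% in WT. In WT the RPKM order was Irf7, Irf1, Irf5, Irf8, Irf9, Irf2, Irf3 and Irf4, and no neighbours in it overlapped. In cKO the order was Irf7, Irf5, Irf8, Irf1, Irf9, Irf3, Irf2 and Irf4, with Irf3 and Irf2 the only neighbours that overlapped. With the length of all exons in place of 1 transcript, Irf5 came above Irf1 and Irf3 above Irf2 in WT. In cKO, Irf1 then came above Irf8 in the mean (11.96 against 11.25 RPKM) and in replicate 2, but not in replicate 1. By group mean the order was then the same in both groups, so the place of Irf1 in the order depends on the length used.

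**Figure D3:**
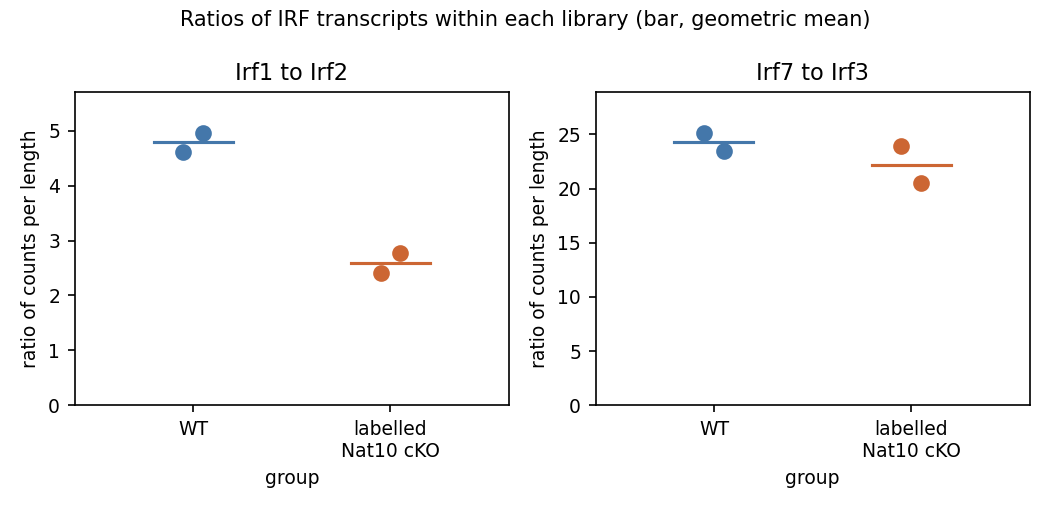
Ratio of Irf1 to Irf2 (left) and of Irf7 to Irf3 (right), as counts per length, in each of the 4 libraries, with axes from 0. The Irf1 to Irf2 ratios are 2.40 and 2.78 in the cKO-labelled libraries and 4.62 and 4.96 in WT, while the Irf7 to Irf3 ratios overlap between groups.

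The genes whose profile over the 4 libraries was most like that of Irf1 were Mmp12 (distance 0.0323), Usp18 (0.0409) and Ehd1 (0.0654). Distance was Euclidean, on centred log2 CPM, among 7778 genes averaging at least 10 CPM, with predicted genes left out. Log2 changes close to that of Irf1 follow from this choice. They were -1.30 for the macrophage elastase Mmp12, -1.29 for Usp18 and -1.21 for the endosomal protein Ehd1. Usp18 removes ISG15 from proteins and dampens interferon receptor signalling.

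Upstream of the IRFs, 17 sensors and adaptors were tested, of which 5 were lower and 0 higher, with a median log2 change of -0.17. The counts of this and the following lists stand beside 14.4% of all tested genes called lower and 14.4% called higher. Myd88, the Toll-like receptor adaptor, fell by 0.90 on the log2 scale, from 118 ± 1.44 CPM in WT to 63.2 ± 1.39 CPM (SD, n = 2, edgeR adjusted p = 2.42e-06). The cytosolic RNA sensors Ifih1 (MDA5, -0.83) and Ddx58 (RIG-I, -0.60) also fell. Both are also in the ISGF3 target list below. The kinase Irak1 (-0.17) and the ligase Traf3 (-0.05) were not called. Of 10 kinases and adaptors of IRF phosphorylation, 3 were lower and 0 higher (median -0.23). Ikbkb, a kinase of the NF-kappa B pathway that also phosphorylates Irf5, fell by 0.72, and the IRF3 kinases Ikbke (-0.38) and Tbk1 (-0.30) fell. The Ikbke call ended without either WT library, and the Tbk1 call ended under 8 of 11 alternatives. The adaptors Azi2 (-0.21) and Tank (0.10) were not called.

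Interferon transcripts were near the detection limit. Of 9 interferon genes, 7 had 0 counts in all 4 libraries and none could be tested. Ifnb1, the interferon beta gene, had 0 and 0 counts in the cKO-labelled libraries and 4 and 3 in WT. Against a floor of 3 counts over the cKO group, the summed WT rate of Ifnb1 lay 2.56-fold above that floor. Ifng, the interferon gamma gene, had 0 and 0 counts against 5 and 3, a WT rate 2.93-fold above the same floor. These folds take the few WT counts as exact, so they are not lower bounds on the difference, and they carry no replicate test.

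Of 9 interferon receptors, JAKs and STATs, 4 were lower and 1 higher, with a median of -0.24. The higher count lies near the 14.4% of all tested genes called higher, while 14.4% were called lower. The ISGF3 subunit Stat2 fell by 0.78, from 78.0 ± 8.46 CPM in WT to 45.4 ± 0.372 CPM (SD, n = 2, edgeR adjusted p = 3.54e-05). The kinase Jak2 fell by 0.40, a call that ended without WT replicate 2, where the lower count of the list was 2. Ifngr1, a chain of the interferon gamma receptor, rose by 0.36, a call that ended under 4 of 11 alternatives. Ifngr2 (-0.15) and Jak1 (-0.14) were not called.

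Of 8 tested partners of Irf4 and Irf8 on DNA, 3 were lower and 1 higher (median -0.26). Here too the higher count lies near the 14.4% of all tested genes called higher, while 14.4% were called lower. Batf (-1.23) and Batf2 (-1.44), AP-1 family factors that pair with IRFs, fell, Batf from 65.8 ± 2.91 CPM to 28.1 ± 0.401 CPM. Ikzf1 (Ikaros) fell by 0.47, a call that ended without WT replicate 2. Nfatc1, the main transcription factor of osteoclast formation, rose by 0.55, and that call also ended without WT replicate 2. The partner Spi1 (PU.1) stood at -0.04 and Tcf3 at 0.07, neither called.

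Of 11 regulators of IRF proteins, 4 were lower and 2 higher, with a median of -0.08, and the higher count lies near the 14.4% of all tested genes called higher. Usp18 (-1.29) and the ubiquitin ligases Trim21 (-1.20) and Peli1 (-0.74) fell. The corepressor Irf2bp2 and its relative Irf2bpl rose by 0.48 each, and both calls ended without WT replicate 2. The ligases Spop (0.11) and Stub1 (-0.31) were not called. Of 6 factors described to regulate Irf8 in osteoclast precursors, 1 was lower and 2 were higher (median 0.07). Their lower count lies near the 14.4% of all tested genes called lower. The repressor Prdm1 (Blimp1) fell by 0.35, a call that ended under 7 of 11 alternatives. The histone methyltransferase Ezh2 rose by 0.76, a call that ended without WT replicate 2. The DNA methyltransferase Dnmt3a (0.04) and Spi1 were not called.

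Genes described as IRF targets were mostly lower. Taken once each, 59 were tested, of which 45 were lower, 4 higher and 10 not called, with a median log2 change of -0.84. Over all tested genes, 14.4% were called lower and 14.4% higher. The lists were chosen with earlier results of these data known, so their counts are not an independent test. Target lists overlap in 5 genes, so the counts by factor are not separate measurements, and a list named for an IRF gathers genes that other factors also control. Ifih1 and Ddx58, counted above as sensors, and Usp18, counted above as a regulator, are counted again here as ISGF3 targets.

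**Figure D4:**
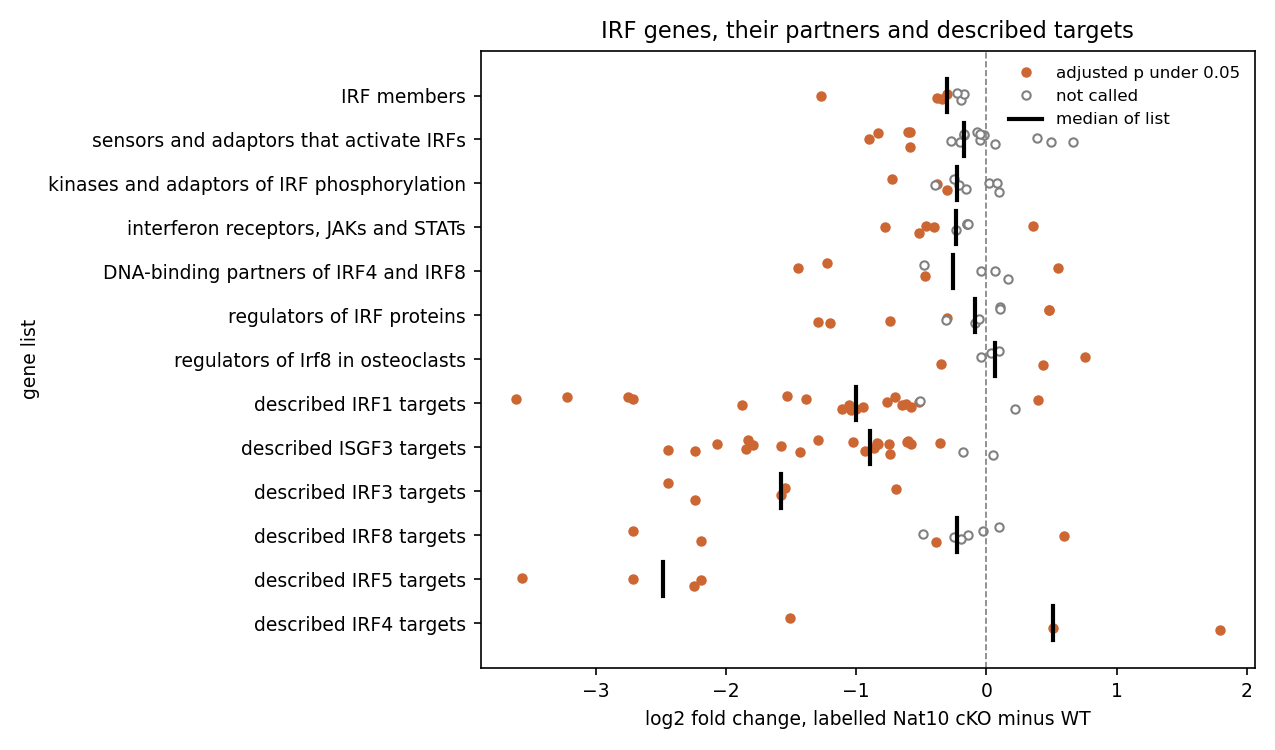
Log2 fold change, labelled Nat10 cKO minus WT, of every tested gene in each list, 1 point per gene, filled when the edgeR adjusted p was under 0.05, with a bar at the median of the list. The IRF1, ISGF3, IRF3 and IRF5 target lists have medians of -1.0, -0.90, -1.58 and -2.48, while the IRF8 target list has a median of -0.22 and the IRF4 list one of 0.51.

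Of 21 described IRF1 targets, 18 were lower and 1 higher (median -1.0, range -3.61 to 0.39). Gbp5, a guanylate-binding protein of inflammasome responses, was at 14.2 ± 1.86 CPM in the cKO-labelled libraries and 132 ± 0.467 CPM in WT (SD, n = 2). This was a log2 change of -3.22 (edgeR adjusted p = 1.56e-12). Gbp2 was at 60.2 ± 1.36 CPM against 221 ± 1.74 CPM, a change of -1.87, and Ptgs2 (cyclooxygenase 2) fell by 1.53. The antigen presentation gene B2m rose by 0.39, a call that ended without either WT library. Nos2, which encodes the inducible nitric oxide synthase, stood at 0.22 (200 ± 3.57 against 171 ± 2.67 CPM) and Il15 at -0.51, neither called.

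Of 22 tested ISGF3 targets, 20 were lower and 0 higher (median -0.90). This list shared 0 genes with the IRF1 target list. Ifit1, an RNA-binding antiviral protein, was at 90.8 ± 1.45 CPM in cKO and 429 ± 24.3 CPM in WT, a log2 change of -2.24 (edgeR adjusted p = 1.11e-11). Ifit2 (-2.44) and the antiviral enzyme Rsad2 (viperin, -2.07) fell. Rtp4 (-0.18) and Oas2 (0.05) were not called. All 5 tested IRF3 targets were lower (median -1.58), Ifit1 and Ifit2 among them. The others were the ubiquitin-like modifier Isg15 (-1.58) and the chemokines Cxcl10 (-1.55) and Ccl5 (-0.69). Isg15, like Ifit1 and Ifit2, is also in the ISGF3 target list.

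All 4 tested IRF5 targets, which are inflammatory cytokine genes, were lower (median -2.48). Tnf was at 238 ± 33.2 CPM in cKO and 1131 ± 51.6 CPM in WT, a log2 change of -2.25 (edgeR adjusted p = 2.91e-11). Il6 fell by 3.57, and Il12b, the shared subunit of interleukins 12 and 23, fell by 2.71. Il23a, the other interleukin 23 subunit, was not tested. It had 0 and 0 counts in cKO and 6 and 9 in WT, a WT rate 5.50-fold above the floor used for Ifnb1, with the WT counts taken as exact.

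The 10 IRF8 targets were mixed, with 3 lower, 1 higher and 6 not called (median -0.22). Their higher count lies near the 14.4% of all tested genes called higher. Il12b (-2.71) and Il12a (-2.19), the interleukin 12 subunits, fell. Cybb, an NADPH oxidase subunit, fell by 0.38, a call that ended under 5 of 11 alternatives. Cst3 (cystatin C) rose by 0.60, from 565 ± 1.96 CPM to 854 ± 113 CPM. The metal transporter Slc11a1 (-0.14) was not called.

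Of 3 tested IRF4 targets, genes of alternatively activated macrophages, 2 were higher and 1 lower (median 0.51). Arg1 (arginase 1) rose by 1.79 from a low level, 1.73 ± 0.447 CPM in WT to 5.89 ± 0.0404 CPM. Chil3 rose by 0.51, a call that ended without WT replicate 2, and the mannose receptor Mrc1 fell by 1.51. Irf4 itself, at 10 counts or fewer in every library, was too rare to compare with these genes.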

How the data were processed

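Counts per gene were deposited by the authors as 1 table for 4 libraries. The submitters' processing notes list read trimming software fastp 0.20.0, the aligner STAR 2.7.9a, the counter featureCounts 2.0 and the build GRCm39; the annotation release and the strand setting are not stated there. All 21834 rows are protein-coding genes and 6402 had no count. From these counts, edgeR 4.0.16 in R 4.3.3 kept 11448 genes (filterByExpr), scaled them by TMM factors and ran the two-sided quasi-likelihood test of cKO against WT, with Benjamini-Hochberg adjustment over all 11448 and a threshold of 0.05. Log2 changes in the text come from this fit. DESeq2 1.42.0, other scalings, other filters, a replicate block and leaving out each library were alternatives.

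The members and gene lists were chosen with earlier results of these data known. Besides all members and Nat10, the rule for named genes took from each list up to 3 genes per direction with the smallest p and up to 2 not called with the highest mean CPM, and the 3 genes with a profile nearest to that of the most changed member; the marker lists are given mainly as counts and sums. Some genes under this rule are not reported here. Cxcl10, Ccl5, Csf1r and the genes seen only in WT were added after their values were seen. RPKM was computed with the length of 1 principal transcript per gene (GENCODE M21); sequences are from RefSeq. Replicates differed by more than sampling noise (chi-square per gene 6.16 in WT and 11.2 in cKO, over genes with at least 10 counts), and the biological coefficient of variation was 8.28%. Poisson intervals cover counting error only, and folds against the floor of 3 counts take the WT counts as exact. The fit was tested on simulated counts. The planned ratio of Irf4 to Irf8 was not computed because Irf4 had 0 counts in 1 library.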

Additional observations from a re-analysis of the deposited data

How the results depend on the processing

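The 4 IRF members called lower became 1 under upper-quartile scaling, 2 under library-size scaling, 2 with at least 10 CPM on average and 2 in DESeq2. Leaving out 1 library gave 1 to 5, and no setting called a member higher. Upper-quartile scaling moved the median of all genes by 0.10, library size by 0.07. Relative to that median Irf1 stood at -1.27, Irf2 at -0.39 and Irf9 at -0.31 under all 3 scalings. Irf2 was not called under upper-quartile (-0.28), library size (-0.31), the 10 CPM filter (-0.34) or DESeq2 (-0.38), nor was Irf7 under upper-quartile (-0.24), nor Irf9 under upper-quartile (-0.20), library size (-0.24), no filter (-0.30), the 10 CPM filter (-0.26) or DESeq2 (-0.31). Irf8 was called with the replicate block (-0.23). Leaving out 1 library gave -0.44 to -0.32 for Irf2, -0.38 to -0.30 for Irf7, -0.32 to -0.14 for Irf8, -0.32 to -0.29 for Irf9 and -0.24 to -0.03 for the Irf7 to Irf3 ratio. The Irf2 and Irf9 calls ended without either WT library and without cKO replicate 2, and the Irf7 call without either WT library.

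Replicate numbers were not taken to pair the libraries: there are only 2 pairs and their differences correlated at 0.148 over genes. With the replicate block 2126 genes were higher and 2175 lower, and 5 IRF members were lower.

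Over all genes 1652 were called higher and 1650 lower. DESeq2 gave 1065 higher. The split was 2247 higher and 1110 lower under upper-quartile and 2026 and 1252 under library-size scaling. Leaving out 1 library gave 864 to 1576 higher and 973 to 1925 lower.

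List counts moved as follows. Sensors higher went from 0 to 1 under upper-quartile and under the replicate block (0 to 1 without 1 library). Receptors higher went from 1 to 0 under RLE factors and DESeq2 (0 to 1), and receptors lower to 2 to 5. Irf8 regulators lower went from 1 to 0 under upper-quartile, library size, the 10 CPM filter and DESeq2 (0 to 1), and higher from 2 to 1 in DESeq2 (0 to 2). IRF1 targets higher went from 1 to 2 under upper-quartile, library size, the 10 CPM filter and the replicate block (0 to 1). IRF8 targets lower went from 3 to 5 under the replicate block (2 to 4). Under the 10 CPM filter, IRF4 targets lower went from 1 to 0 and higher from 2 to 1 (1 to 2 without 1 library), macrophage markers lower from 2 to 1, dendritic cell markers lower from 1 to 0 and B cell markers higher from 1 to 0. Osteoclast markers lower went from 2 to 1 under upper-quartile, the 10 CPM filter and DESeq2 (0 to 2), and higher to 3 to 6. In the IRF4 target and marker lists, the 10 CPM filter left Mrc1, Arg1, Ccr7, Ebf1 and Calcr untested. Their calls were therefore not lost in a test under that filter. Without 1 library, kinases lower were 1 to 3, partners higher 0 to 1, IRF protein regulators higher 0 to 2 and macrophage markers higher 2 to 4. Of 55 called list genes that the text names by rule, 38 kept their call in every alternative that tested them.

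The all-exon length, an alternative chosen after seeing the data, turned the log2 ratio in WT of Irf1 to Irf5 from 0.44 to -0.0821 and of Irf2 to Irf3 from 0.07 to -0.74. Apart from the genes that the 10 CPM filter left untested, the cause of each change was not tested. Irf4 and the interferon genes were limited by depth.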
